A study of Danio rerio with 2 samples.

Results

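The peaks described here are the 3799 regions of the deposited list that lie on the unplaced KN and KZ scaffolds of the zebrafish genome, out of 192841 regions in all, or 1.97% of the list. They are defined by sequence name alone, and the set was picked with earlier results of these data known. The 3578 KN peaks lay on 670 scaffolds and the 221 KZ peaks on 67. They are set beside the 189031 peaks on chromosomes 1 to 25. The series holds 2 CUT&Tag libraries, each from 30 pooled adult heart ventricles whose dissociated cells were labelled as platelets, and the pellet also held erythrocytes. The Npas4l-HA OE sample carried Tg(ubi:loxp-stop-loxp-Npas4l-HA) together with Tg(gata1a:Cre-ERT2). The control sample carried Tg(gata1a:Cre-ERT2) without the Npas4l transgene. Both were therefore carriers of the Cre-ERT2 driver under the gata1a promoter, and in the overexpression fish the ubi promoter and a loxp-stop-loxp cassette preceded the tagged factor. Both were profiled with an antibody to the HA peptide tag, and the labels give neither age nor drug treatment. The labelled cell type could not be set against marker genes, because the list names no genes. With 1 library per group no difference could be set against replicate error, no test across samples was possible, and every ratio compares these 2 libraries, not the genotypes.

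Npas4l, the product of the zebrafish gene known as cloche, is a bHLH-PAS transcription factor that acts early in the formation of blood and endothelial cells. In CUT&Tag an antibody brings Tn5 transposase to the place on chromatin where its target sits, and the DNA cut there is sequenced. Cells without the tag show where the transposase cuts without it, so the control library measures background. Unplaced scaffolds are assembled pieces of a genome that could not be ordered on a chromosome, and repeated sequence is a common reason for this. Coordinates below are as deposited, counted from 1, on sequences that the submitters' processing notes place in GRCz11. Scaffold lengths were not used here, so the end of the last listed peak serves as the least length of a scaffold.

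Listed scaffold peaks had nearly the same median width and median ratio of the libraries as listed chromosome peaks. The p cutoff of the list bounds that ratio from below in both sets. Scaffold peaks lay closer together, without allowance for scaffold length, and stood on more fragments of both libraries at the upper end. The median scaffold peak was 228 bp wide (quartiles 184 and 323 bp), against 222 bp on chromosomes (quartiles 184 and 306 bp). The widths of the 25 chromosomes had medians of 219 to 228 bp, and the highest of these, on chromosome 4, equalled that of the scaffolds. The widest scaffold peak spanned 2620 bp, and the widest peak of the whole list 6350 bp. Peaks of 500 bp or more made up 7.77% of the scaffold peaks and 5.28% of the chromosome peaks.

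The depth behind a peak was read from its deposited fold enrichment and p-value, which together fix 2 numbers at the summit. These are the overexpression pileup, a whole number of fragments, and the control background, a number of control fragments after scaling. The median overexpression pileup was 5 fragments on scaffolds and 5 on chromosomes. The upper quartiles were 8 fragments on scaffolds and 6 on chromosomes, and the 99th percentiles were 225 fragments on scaffolds and 24.0 on chromosomes. On scaffolds 54.0% of the peaks had 5 or fewer overexpression fragments, against 69.6% on chromosomes. At the other end, 2.53% of the scaffold peaks and 0.296% of the chromosome peaks had 100 or more.

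The control background followed the same pattern. Its median was 1.34 scaled fragments on scaffolds and 1.11 on chromosomes, with upper quartiles of 2.21 on scaffolds and 1.66 on chromosomes. The scaffold median lay above that of each of the 25 chromosomes, which ranged from 1.10 to 1.32, with chromosome 4 the highest. The lowest possible background, the genome-wide value of 0.994, was reached by 936 scaffold peaks (24.6%, Wilson 95% interval 23.3% to 26.03%) and by 30.8% of the chromosome peaks. Control fragments over the summit itself set the background at 47.2% of scaffold peaks and 40.6% of chromosome peaks. Windows of 1 kb set it at 18.5% of scaffold peaks and 18.7% of chromosome peaks. Windows of 10 kb set it at 9.66% of scaffold peaks and 9.94% of chromosome peaks. A 10 kb count that is a multiple of 10 gives the same background as a 1 kb count and was assigned to 1 kb. The 10 kb shares are thus understated and the 1 kb shares overstated, by an unknown amount. These intervals and those below cover counting error alone, and peaks of 1 scaffold are not independent of each other.

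The ratio of overexpression pileup to control background had a median of 3.47 on scaffolds and 3.62 on chromosomes, with quartiles of 2.72 and 4.20 on scaffolds against 2.76 and 4.02 on chromosomes. The medians of single chromosomes ran from 3.36 to 3.62, and chromosome 4 alone lay below the scaffold value, with 3.48 the next lowest. The higher pileups on scaffolds stood over higher control backgrounds. At the genome-wide background the ratio is taken over a fixed value, with at most 1 control fragment over the summit. Both sets passed the same p cutoff, so their close medians do not show what the ratio is at unlisted sites.

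**Figure D1:**
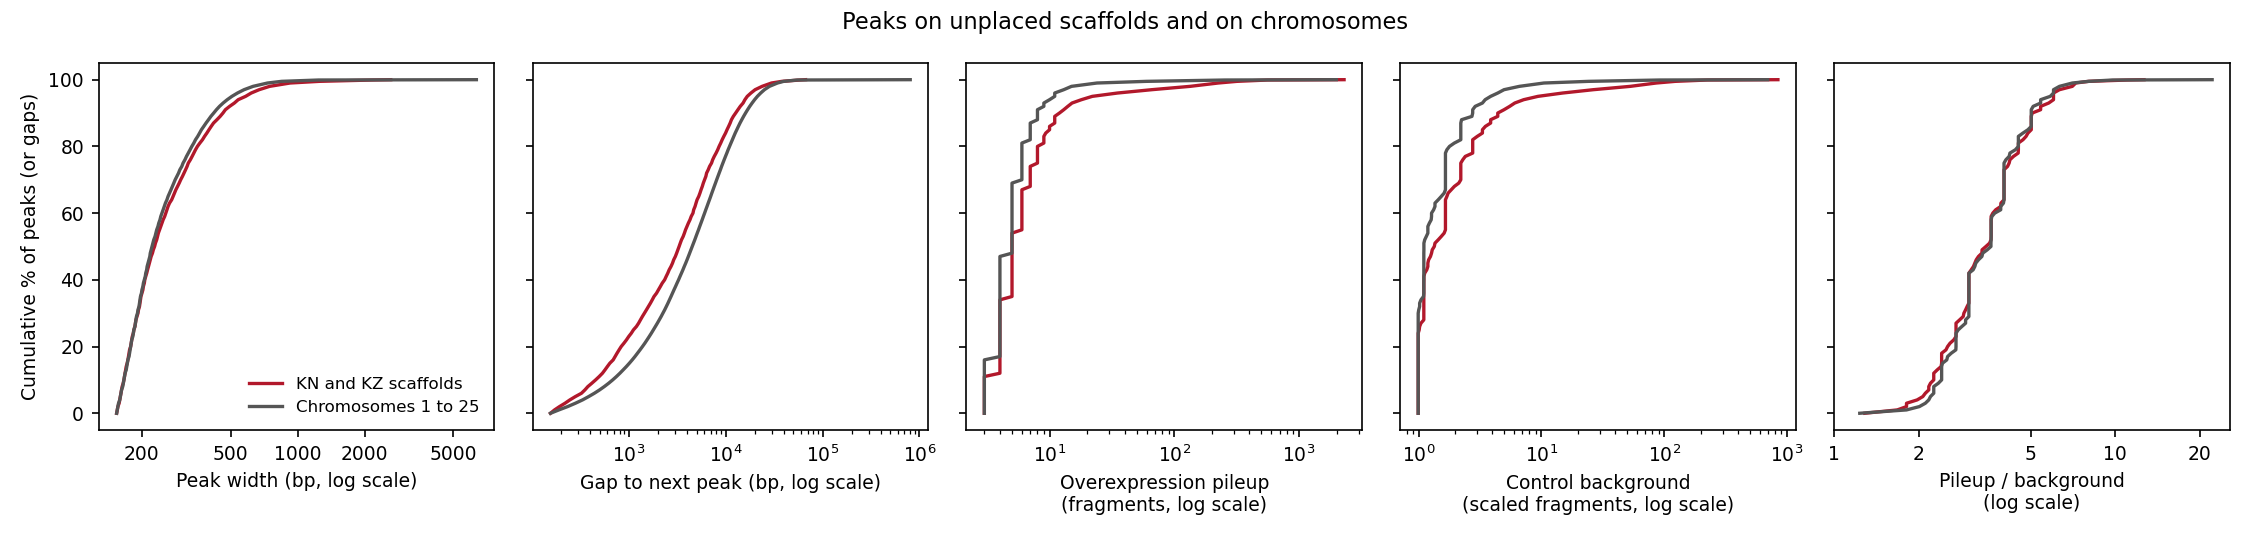
Cumulative percentage of peaks (y axis) against peak width, gap to the next peak, overexpression pileup, control background and their ratio (log x axes) for KN and KZ scaffolds (red) and chromosomes 1 to 25 (grey). The curves of width and ratio lie close together, with medians of 228 and 222 bp and of 3.47 and 3.62, while scaffold peaks reach further right in pileup and background and further left in gap.

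The median gap between neighbouring peaks was shorter on scaffolds, without allowance for their short length. The median gap between the end of a peak and the start of the next was 3298.5 bp over the 3062 gaps on scaffolds, with quartiles of 1114 and 7130 bp. On chromosomes it was 4505 bp over 189006 gaps, with quartiles of 1789 and 9340 bp. Gaps under 1000 bp made up 23.1% of scaffold gaps (21.6% to 24.6%) and 14.9% of chromosome gaps (14.7% to 15.0%). Single chromosomes had medians of 3724.5 to 4774 bp, with chromosome 4 the lowest and 4311 bp the next.

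On the 40 scaffolds whose last peak ended past 100 kb the median gap was 3924.5 bp, which lay above the value of chromosome 4 and below those of the other chromosomes. Within chromosome pieces of 9841 bp, the median span between the first and last peak of a scaffold, the median gap was 1901 bp, and such pieces hold no longer gap than their own length. This was below the 3298.5 bp of the scaffolds, so the order turned around. Scaffolds are limited in the same way. Their median gap was 1511 bp where the last peak ended within 10 kb, below the 1901 bp of the pieces. It was 3976 bp where the last peak ended from 50 to 100 kb. These comparisons do not settle which set has the closer peaks.

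The peaks were spread over many scaffolds, with few on most of them. These counts are not set against scaffold length. A single peak was listed on 199 of the 737 scaffolds, 2 peaks on 111, 3 to 9 peaks on 321 and 10 or more on 106. The median was 3 peaks per scaffold, and 112 scaffolds were needed to reach 50% of the peaks. The 10 scaffolds with the most peaks held 443, or 11.7%. The last peak ended at a median of 16133 bp and at most at 354075 bp.

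Peaks that passed stricter thresholds were more often on scaffolds, and such scaffold peaks, fewer in number, lay on fewer scaffolds. A q of 0.05 or less in the authors' deposited table was reached by 442 scaffold peaks, or 11.6% (10.7% to 12.7%), against 5.49% over the whole list and 5.36% (5.26% to 5.46%) on chromosomes. The highest share on any chromosome was 7.69%, on chromosome 4, and the next was 6.39%. At a -log10 q of 5 or more there were 130 scaffold peaks, or 3.42% (2.89% to 4.05%), against 0.747% over the whole list and 0.690% on chromosomes, where single chromosomes ranged from 0.184% to 1.40%. A fold enrichment of 5 or more was reached by 18 scaffold peaks, or 0.474% (0.300% to 0.748%), against 0.303% over the whole list and 0.299% (0.276% to 0.325%) on chromosomes. Single chromosomes ranged from 0.175% to 0.491% here, and chromosome 22 alone lay above the scaffolds.

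Seen from the other side, scaffolds held 1.97% of all listed peaks, 4.18% of those with a q of 0.05 or less and 9.03% of those with a -log10 q of 5 or more. Of the 1257 nuclear peaks at very high background, 20 times the genome-wide value or more, they held 134, or 10.7% (9.07% to 12.5%). Of these 134, 61 lay on 2 scaffolds, KN149692.1 and KN149693.1, and without that pair the share was 73 of 1196, or 6.10% (4.88% to 7.61%). The number of scaffolds that carried 50% of the members fell with each step: it was 112 for all peaks, 37 where the q was at most 0.05 and 3 where the -log10 q was 5 or more. At least 1 peak with a q of 0.05 or less lay on 222 scaffolds, and 37 scaffolds had 1 with a -log10 q of 5 or more. The sets shrink from 3799 to 442 and then 130 peaks, which by itself lowers such counts of scaffolds. No allowance was made for this.

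The same pair weighed heavily in the other counts and was singled out after its values were seen. They held 64 peaks, of which 61 had a q of 0.05 or less and 58 a -log10 q of 5 or more, so 44.6% of the scaffold peaks with a -log10 q of at least 5 lay on them. Without this pair, 10.2% of the scaffold peaks had a q of 0.05 or less (9.27% to 11.2%), and 1.93% (1.53% to 2.42%) had a -log10 q of at least 5. Both of these shares lay above that of the highest chromosome.

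Of the 25 chromosomes, chromosome 4 came nearest the scaffolds in median background, median gap, share with a q of 0.05 or less and share at high background, 5 times the genome-wide value or more. Chromosome 24 came nearest in the share with a -log10 q of at least 5, with 1.40%, and chromosome 4 had 0.934%. Very high background occurred at 3.53% of scaffold peaks, with chromosome 24 again the nearest at 2.15% and 0.804% on chromosome 4. The 8153 peaks of chromosome 4 past 25 Mb, a boundary taken with earlier results known, had a median width of 231 bp, a median gap of 3296.5 bp and a median ratio of 3.22. Their median background, 1.66, was above the 1.34 of the scaffolds. High background occurred at 9.77% of scaffold peaks (8.86% to 10.8%), against 9.55% (8.94% to 10.2%) there and 3.41% over all chromosomes. The q was at most 0.05 for 11.6% on scaffolds against 9.43% (8.82% to 10.1%) there, and at a -log10 q of 5 or more 3.42% of scaffold peaks stood against 1.28% there (1.05% to 1.54%). Without KN149692.1 and KN149693.1 the scaffold shares were 8.22% (7.38% to 9.14%) at high background and 10.2% (9.27% to 11.2%) at that q. At a -log10 q of 5 or more it was 1.93% (1.53% to 2.42%). Each of these intervals overlapped that of chromosome 4 past 25 Mb, at a -log10 q of 5 or more only narrowly. Leaving the pair out had to lower the scaffold shares, and no peaks of chromosome 4 were left out. The overlap therefore does not show that the sets are alike.

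**Figure D2:**
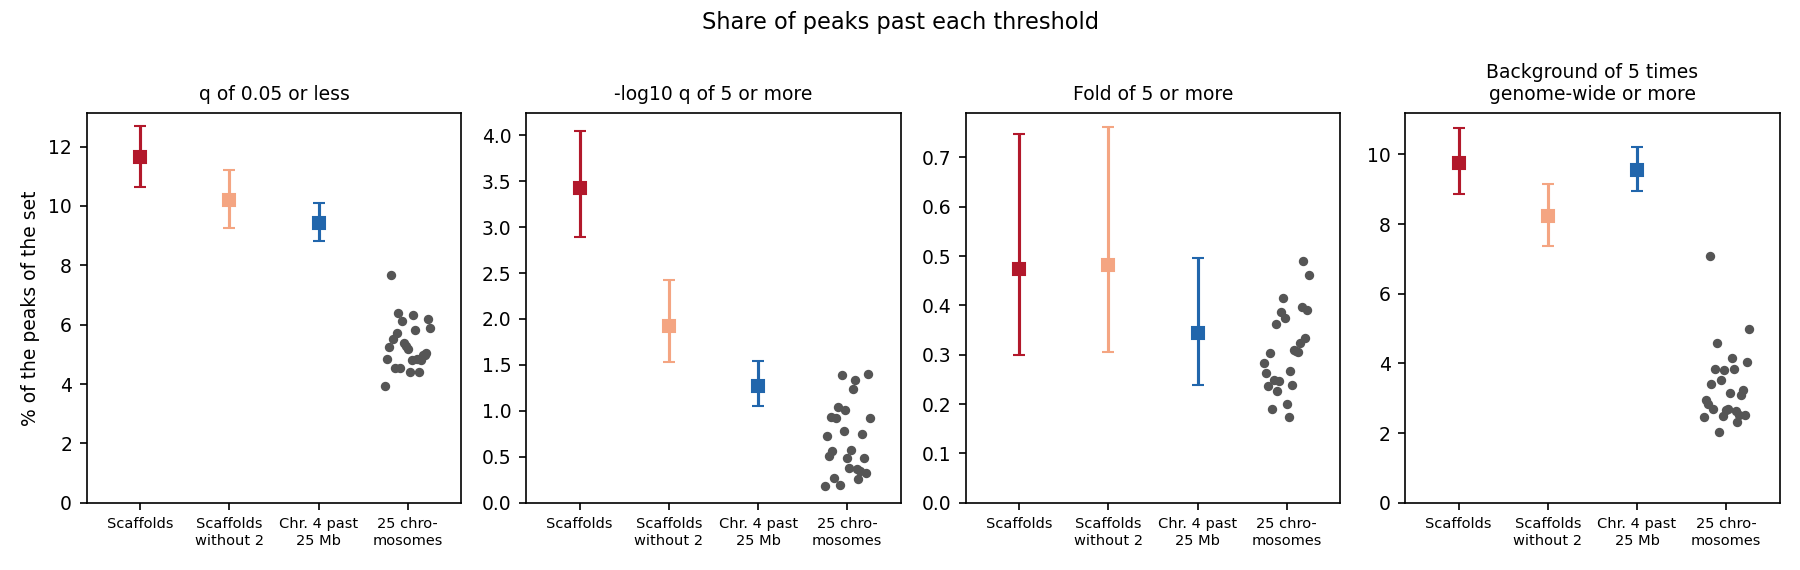
Percentage of peaks past each of 4 thresholds (y axes from 0) for all scaffolds, for scaffolds without KN149692.1 and KN149693.1, for chromosome 4 past 25 Mb (squares with Wilson 95% intervals) and for each of the 25 chromosomes (grey points). The scaffolds lie above every chromosome for a q of 0.05 or less (11.6%), a -log10 q of 5 or more (3.42%) and a high background (9.77%), and above all but chromosome 22 for a fold of 5 or more (0.474%).

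Control background moved with these shares, so peaks were also compared at the same background. In the lowest class, at the genome-wide value, 51 of 936 scaffold peaks reached a q of 0.05 or less, or 5.45% (4.17% to 7.09%), against 3.14% (3.0% to 3.28%) of chromosome peaks. From there up to 2 times that value the shares were 7.66% (6.48% to 9.05%) on scaffolds and 4.64% (4.51% to 4.78%) on chromosomes. Between 2 and 5 times they were 10.9% (8.96% to 13.2%) on scaffolds and 6.68% (6.40% to 6.98%) on chromosomes. In each of these classes the scaffold share was higher and the intervals did not overlap.

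Between 5 and 20 times the genome-wide value the share was 24.9% (19.8% to 30.8%) on scaffolds and 18.3% (17.3% to 19.4%) on chromosomes. At 20 times or more it was 85.1% (78.1% to 90.1%) on scaffolds and 86.1% (84.0% to 88.0%) on chromosomes, with overlapping intervals. Without KN149692.1 and KN149693.1, singled out after their values were seen, it was 75.3% (64.4% to 83.8%) on the scaffolds in this class. All 31 peaks of KN149693.1 in this class passed the q, and 28 of 30 on KN149692.1. Leaving them out had to lower the share, and no chromosome peaks were left out, so this value is not set against the chromosomes. Weighting the chromosome peaks to the background classes of the scaffold peaks raised their share with a q of 0.05 or less to 8.45%, which stood between the unweighted 5.36% and the 11.6% of the scaffolds.

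The ratio of the libraries was also compared within each class. The list holds only peaks past a cutoff in p, which bounds the ratio from below at a given background. At the genome-wide value the lowest listed ratio was 3.02 on scaffolds and 3.02 on chromosomes. Medians within a class therefore depend on that cutoff, and close values do not show that the sets are alike apart from it. The medians were 4.02 on scaffolds and 4.02 on chromosomes at the genome-wide value, and 3.62 on both up to 2 times it. Between 2 and 5 times they were 2.72 on scaffolds and 2.62 on chromosomes, and between 5 and 20 times 2.19 on scaffolds and 2.11 on chromosomes. At 20 times or more the 134 scaffold peaks had a median ratio of 2.62 with quartiles of 1.97 and 3.06, against 2.48 with quartiles of 1.93 and 3.0 for the 1123 chromosome peaks. The scaffold peaks of this class stood on deeper backgrounds, with medians of 58.5 scaled control fragments on scaffolds and 42.5 on chromosomes. Their median widths were 474.5 bp on scaffolds and 422 bp on chromosomes. Over the 73 scaffold peaks of this class outside the pair the median ratio was 2.18, the median width 396 bp and the median background 61.9. No peaks were left out of the chromosome values, so these are not set against them.

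**Figure D3:**
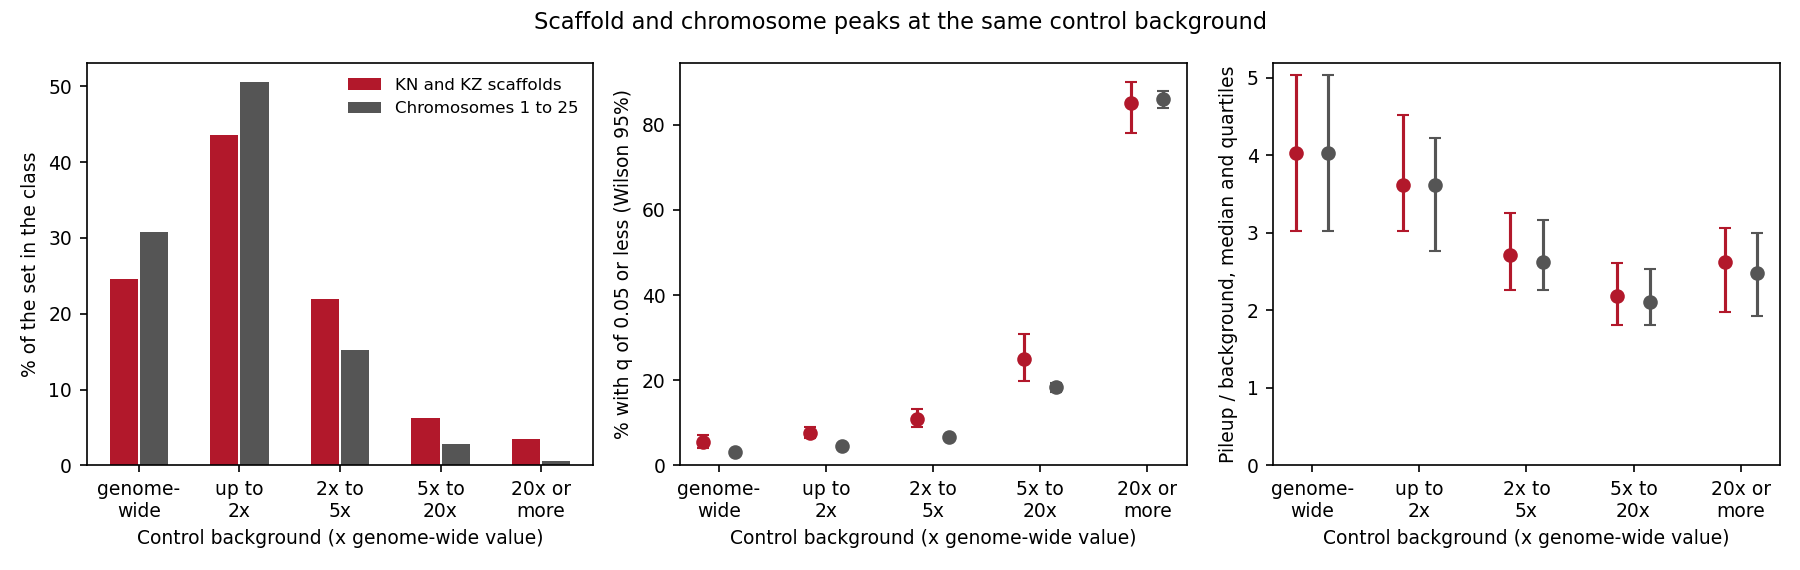
Scaffold peaks (red) and chromosome peaks (grey) in 5 classes of control background, given as multiples of the genome-wide value: the share of each set in the class, the share of the class with a q of 0.05 or less with Wilson 95% intervals, and the ratio of pileup to background with median and quartiles. Scaffolds hold more of the 3 upper classes. Their share with a q of 0.05 or less is higher in each class below 20 times and close at 20 times or more (85.1% and 86.1%), where all scaffolds are counted.

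**Figure D4:**
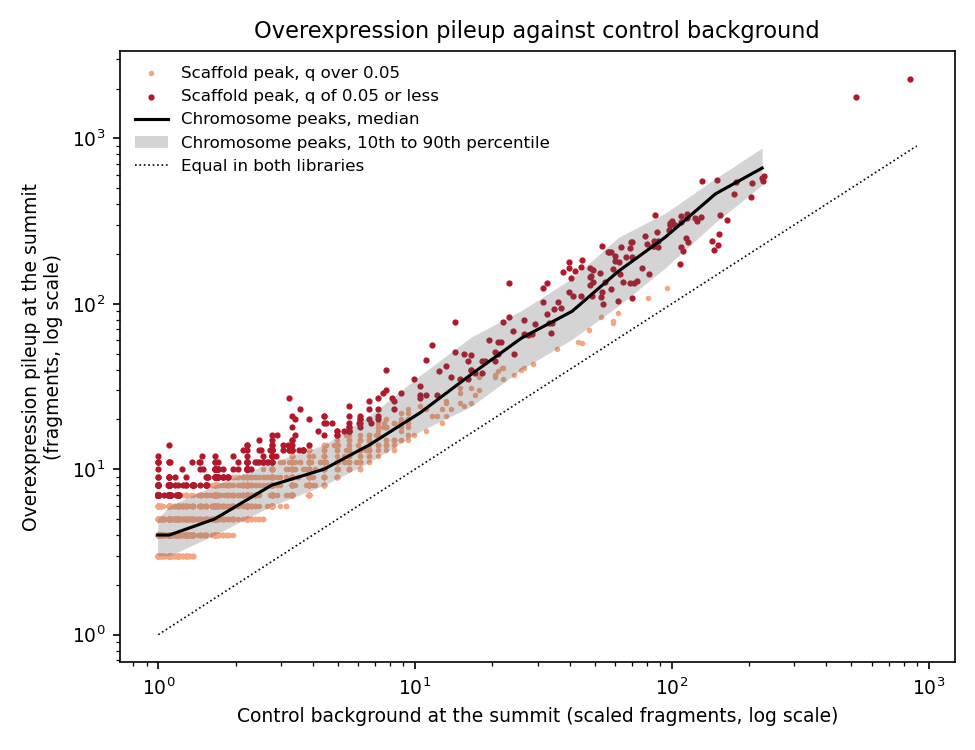
Overexpression pileup (y axis) against control background (x axis) at the summit of each scaffold peak, both in fragments on log scales, dark red where the q is 0.05 or less, with the median and the 10th to 90th percentile of chromosome peaks in grey where at least 20 of them share a range of background, and equality as a dotted line. The 2 deepest scaffold peaks, at 2298 and 1780 overexpression fragments, lie at backgrounds past the end of the band, where fewer than 20 chromosome peaks share a range. Single chromosome peaks reach pileups of up to 1992 and backgrounds of up to 696.5. Both sets passed the same p cutoff, which bounds the pileup from below at a given background.

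Among the 10 scaffolds with the most peaks, 7 had median backgrounds of 1.10 to 1.66 and 3 had higher ones. KN147651.2 had 56 peaks between 13571 and 349700, with a median background of 1.10 and a median ratio of 3.90, and 3 of them had a q of 0.05 or less. KN149696.2 had 54 peaks between 4809 and 354075, with the same median background of 1.10 and a median ratio of 3.85, and 4 passed that q. KN147652.2, KN149688.2, KN149690.1, KN147636.1 and KN149686.1 held 51, 46, 42, 35 and 32 peaks, with median backgrounds from 1.10 to 1.66 and 2 to 5 peaks at that q each. Their peaks covered 3.86% to 5.44% of the span between the first and the last. For comparison, 5.49% of the peaks of the whole list and 11.6% of all scaffold peaks had a q of 0.05 or less.

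KN149691.1 held the most peaks, 63 between 692 and 221612, and mixed both kinds. Its 22 peaks between 29017 and 86532 had backgrounds of 2.98 to 25.96 with a median of 7.34, and 14 of them had a q of 0.05 or less. The 8 peaks before that stretch had a median background of 2.02 and the 33 peaks after it 1.63, and 1 and 3 of these reached the q. The stretch was bounded after its values were seen. Inside it the median gap was 496 bp, against 2408.5 bp among the 33 later peaks.

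KN149692.1 and KN149693.1 were the most densely covered of the 106 scaffolds with 10 or more peaks. The 34 peaks of KN149693.1 between 260 and 47606 covered 47.9% of their span, and the 30 peaks of KN149692.1 between 115 and 36878 covered 51.3%. KN150270.1 came next at 42.0%, and of the 10 scaffolds with the most peaks KN149691.1 came next at 11.9%. All 64 peaks were at high background, and 61 of them at very high background. The median gap was 433 bp on KN149693.1 and 556 bp on KN149692.1.

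The level on KN149693.1 changed along its length. Its 31 peaks between 260 and 39467 had overexpression pileups of 77 to 591 fragments over backgrounds of 32.6 to 228.7, and each of them had a -log10 q of 5 or more. The 3 peaks beyond, from 44720 to 47606, had pileups of 18 to 20 over backgrounds of 6.04 to 7.73, and none of them reached that level. The boundary was set after the values were seen. The median ratio was 2.88 over the 31 peaks, within a range of 2.07 to 4.11, and 2.79 over the 3, within 2.33 to 3.14. On KN149692.1 the pileups ran from 41 to 558 over backgrounds of 20.5 to 149.7, with a median ratio of 2.70 and a range of 1.57 to 4.20.

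The background of KN150031.1 also stepped down along its length, at a boundary set after its values were seen. Its first 7 peaks, from 591 to 12099, had backgrounds of 59.0 to 177.3 and a median ratio of 2.19. Its next 5, from 19517 to 51942, had backgrounds of 0.994 to 3.87 and a median ratio of 3.62.

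KN150342.1, named after its values were seen, had a run of high background at a lower ratio. The 8 peaks between 19159 and 26633 had backgrounds of 53.9 to 153.0 and overexpression pileups of 100 to 263 fragments. Their ratios ran from 1.31 to 1.86 with a median of 1.58, below every one of the 31 ratios of the first stretch of KN149693.1, at overlapping backgrounds. Their median width was 224 bp against 599 bp in that stretch, and their summits followed each other at distances of 592 to 1451 bp. The 12 later peaks of the same scaffold, from 41883 to 82226, had backgrounds of 0.994 to 14.4 and a median ratio of 3.59.

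Across the 106 scaffolds with 10 or more peaks, the median background was under 2 times the genome-wide value on 87, between 2 and 5 times on 12 and at least 5 times on 7. Of these scaffolds, 53 had no peak at high background and 23 had no peak with a q of 0.05 or less. Over all scaffold peaks the shares were 9.77% at high background and 11.6% at that q. Even scatter at such shares would also leave some scaffolds without such a peak, and the counts were not set against it. Of the 538 scaffolds with at least 2 peaks, 12 had all their peaks at high background. The 371 peaks at that level lay on 144 scaffolds, and 19 scaffolds held 50% of them.

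**Figure D5:**
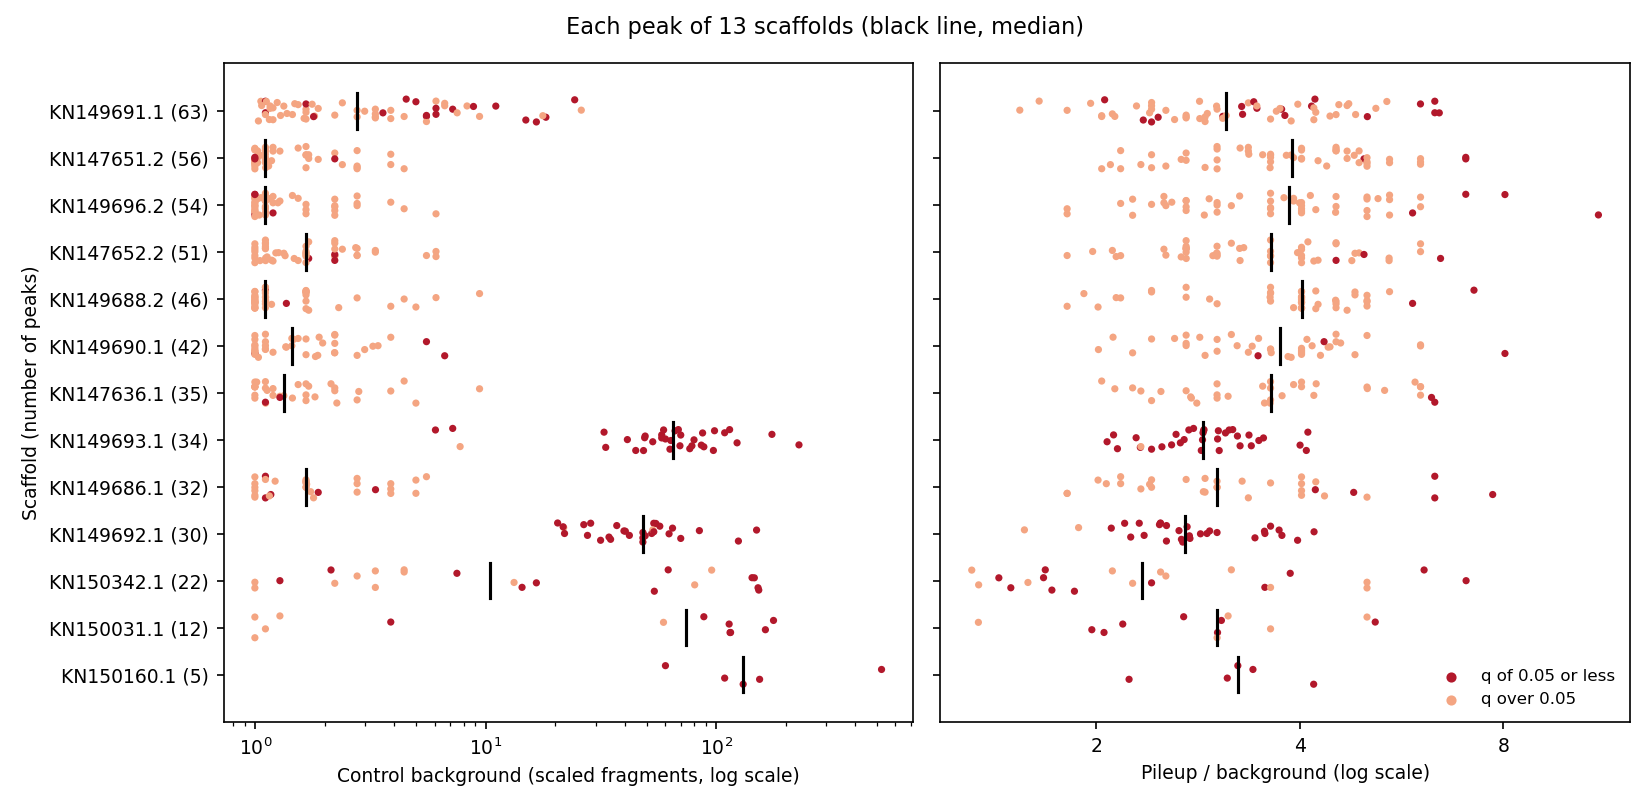
Control background (left, scaled fragments, log scale) and ratio of pileup to background (right, log scale) of each peak on the 10 scaffolds with the most peaks and on KN150342.1, KN150031.1 and KN150160.1, dark red where the q is 0.05 or less, with the median as a black line and the number of peaks in parentheses. KN149693.1 and KN149692.1 have median backgrounds of 64.9 and 48.1, and 7 of the 10 scaffolds with the most peaks have medians of 1.10 to 1.66.

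The 2 scaffold peaks with the lowest p-values stood on the 2 deepest backgrounds. Control fragments are printed here and below as unscaled counts. The ratios use the scaled background, in which a step of 0.552 at a summit is read as 1 control fragment. They are therefore not ratios of the printed counts. The peak caller's settings are not given, so such a step could instead be 1 end of a fragment. The printed control counts would then be counts of ends, and the intervals of ratios would be too narrow. The intervals of ratios given here and below cover counting error alone. They make no allowance for the choice of extreme peaks from a list already filtered by p, so these ratios may be overstated. The peak on KN150160.1 from 5654 to 8218 had 1780 overexpression fragments at its summit over a background of 522.0, set by 945 control fragments, a ratio of 3.41 (exact 95% interval 3.15 to 3.69). Its -log10 p of 404.4 in the authors' deposited table was the highest of the whole list, where the highest on a chromosome was 348.8. The second, on KN150271.1 from 50 to 2201, was the only peak listed on its scaffold. It had the deepest overexpression pileup of any scaffold peak, 2298 fragments, against 1528 control fragments, a ratio of 2.72 (2.55 to 2.91).

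The next 3 by p-value lay far below these. A second peak of KN150160.1, from 1524 to 2228, had 549 overexpression fragments and 237 in the control, a ratio of 4.19 (3.59 to 4.90). The peak of KN149692.1 from 4180 to 5154 had 558 against 271, a ratio of 3.73 (3.22 to 4.33). The peak of KN150031.1 from 11785 to 12099 had 543 against 321, a ratio of 3.06 (2.66 to 3.53). Scaffold peaks took 2 of the 10 and 8 of the 100 highest -log10 p values of the list.

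On KN150160.1 all 5 listed peaks were high, with overexpression pileups of 549, 345, 1780, 340 and 195 fragments in order along the scaffold. Their backgrounds in the same order were 130.9, 154.3, 522.0, 108.8 and 60.2, and the ratios were 4.19, 2.24, 3.41, 3.12 and 3.24. The lowest of these ratios belonged to the peak from 5325 to 5496, whose background was assigned to the 1 kb around it.

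The widest scaffold peaks were also at high background. The widest, on KN150031.1 from 1520 to 4139, spanned 2620 bp and had 322 overexpression and 296 control fragments at its summit, a ratio of 1.97 (1.68 to 2.31). The second was the peak of KN150160.1 with the lowest p, at 2565 bp. The third, on KN149692.1 from 28317 to 30714, spanned 2398 bp, with 193 overexpression fragments against 127 control fragments and a ratio of 2.75 (2.19 to 3.47).

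By fold enrichment the leading scaffold peaks were of another kind and rested on little coverage. The highest fold of a scaffold peak in the authors' deposited table, 7.13, belonged to the peak on KN150408.1 from 309 to 964. Its summit was covered by 14 overexpression and 2 control fragments, a ratio of 12.7 with an exact 95% interval of 2.91 to 114.9, and it ranked 42 in the whole list. The second, on KN150079.1 from 1464 to 1696, had 27 overexpression fragments. Its background matched 38 control fragments within 1 kb, and the ratio was 8.35 (4.90 to 14.0 with that count). A larger count within 10 kb could give the same background. The remaining 3 stood at the genome-wide background of 0.994, where at most 1 control fragment covers the summit. They were the peak on KN149729.1 from 443 to 891 with 12 overexpression fragments, that on KN147637.2 from 91599 to 91778 with 11, and that on KN149696.2 from 224355 to 224588 with 11. Of the 18 scaffold peaks with a fold of 5 or more, 2 were at high background, and 10 also had a -log10 q of 5 or more. Over all scaffold peaks 9.77% were at high background and 3.42% had a -log10 q of 5 or more.

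Peaks near the first base of a scaffold were wider and higher than those further in. The 98 peaks that started within 500 bases of the first base, on 97 scaffolds, had a median width of 280.5 bp, a median overexpression pileup of 7 fragments and a median background of 1.66. The 3162 peaks that started past base 5000, on 615 scaffolds, had medians of 227 bp, 5 fragments and 1.302. Near the first base 21.4% (14.5% to 30.5%) had a q of 0.05 or less, against 11.3% (10.2% to 12.4%) past base 5000. High background occurred at 16.3% of the peaks near the first base and at 9.14% of those past base 5000. The groups were not compared within the same scaffolds or at the same background. The median ratio was 3.62 near the first base and 3.51 past base 5000. Only 6 peaks lay this close to the first base of a chromosome, and 3 of them had a q of 0.05 or less.

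The least length of a scaffold, read from its last peak, went with the background in no steady order. The share of peaks at high background was 7.91% on the 230 scaffolds whose last peak ended within 10 kb, 10.2% on the 199 from 10 to 20 kb, 14.9% on the 196 from 20 to 50 kb, 6.24% on the 72 from 50 to 100 kb and 7.05% on the 40 past 100 kb. KN149692.1 and KN149693.1 fall in the middle class, and without them its share was 9.74%. Shares with a q of 0.05 or less ran in the same order of lengths through 9.32%, 13.1%, 14.9%, 9.86% and 9.19%, and the third of these was 10.0% without the pair.

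The 221 KZ peaks had a median width of 234 bp and a median ratio of 3.51, against 227 bp and 3.47 for the 3578 KN peaks. The q was at most 0.05 for 12.7% of them (8.91% to 17.7%), against 11.6% (10.6% to 12.7%) of the KN peaks. High background was found at 14.5% of KZ peaks (10.4% to 19.7%) and at 9.47% of KN peaks (8.56% to 10.5%). These intervals overlapped narrowly. The median background was 1.66 at KZ peaks and 1.33 at KN peaks. At the upper end the order was the other way: 0.452% of KZ peaks (0.0799% to 2.52%) and 2.66% of KN peaks (2.18% to 3.23%) had 100 or more overexpression fragments, and 1.81% of KZ peaks (0.706% to 4.56%) and 3.63% of KN peaks (3.07% to 4.30%) were at very high background.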

How the data were processed

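Samples were grouped by title into 1 Npas4l-HA OE and 1 control library. The submitters' processing notes name Bowtie2 2.4.5, Picard 2.1.0, MACS2 2.2.7.1 and the build GRCz11. The peak caller's settings and the treatment of duplicates and multiply mapping reads are not given in the sources used here. Multiply mapping reads, if kept, would raise repeated sequence in both libraries. Per peak the authors deposited a fold enrichment (a ratio), a -log10 p, a -log10 q, a score and a summit offset, all used as their own values. The list ends at a p of 0.05: no -log10 p was under 1.304.

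The pileup was recovered as the whole number that, with the background solved from the fold after adding 1 to both libraries, gave the deposited -log10 p. The largest relative difference was 5.96e-05. Scaling made 1 control fragment at a summit worth 0.552 of background, if the caller counted each control fragment once. If it counted each end, the control counts are counts of ends. The recovery was tested on simulated data. The total fragments of a library are unknown. Intervals are Wilson for shares and exact Clopper-Pearson for ratios. PCR duplicates that were kept would not be independent molecules.

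The named scaffolds are the 10 with the most peaks. KN150342.1 and KN150270.1 were named after their values were seen, and others through their named peaks, of which KN150031.1 and KN150160.1 are described whole. The named peaks are the 5 with the highest fold, the 5 with the highest -log10 p and the 3 widest. Members, rule and comparisons were chosen with earlier results of these data known. Peak sequences and genes at the peaks were not analysed here. Python 3.11.15, numpy 2.4.6, scipy 1.17.1 and pandas 2.3.3 were used.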

Additional observations from a re-analysis of the deposited data

How the results depend on the processing

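Each group had 1 library, so no replicate was left out. No paired analysis was possible because each group had 1 sample. Of 69 alternatives, 36 left the value within its 95% binomial interval (or within 1.5 times for a count) and 33 moved it. The values of the class at 20 times background without KN149692.1 and KN149693.1 stand beside the values with them and are not among the 69. Those that left out KN149692.1 and KN149693.1, the background limit on the q share and the gap on long scaffolds were chosen after seeing the data. The cause of the shifts was not tested.

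At a q of 0.05 or less, the median width became 335.5 bp, the gap 2026 bp, the pileup 13, the background 2.76, the ratio 4.56, the share of the list on scaffolds 4.18% and the number of scaffolds with 50% of the peaks 37. That share was 9.03% for a -log10 q of 5 (5.21% without the pair), 5.195% for a q of 0.01 and 3.08% for a fold of 5. The number of scaffolds was 3 at a -log10 q of 5. On KZ scaffolds alone the width was 234 bp, the gap 3548.5 bp, the background 1.66 and the share at 5 times background 14.5%. The gap was 3735 bp as a median over scaffolds, 3573 bp between summits, 3925 bp with neighbours under 500 bp merged and 3924.5 bp on scaffolds past 100 kb. The ratio was 2.47 as the authors' deposited fold and 3.13 above the genome-wide background. The share with a q of 0.05 or less was 10.2% without the 10 scaffolds with the most peaks, 10.2% without the pair and 7.85% at backgrounds under 5 times, where chromosomes had 4.48%. The share at 5 times background was 8.10% without the 10 scaffolds, 8.22% without the pair, 4.74% at 10 times and 31.7% at 2 times. Without chromosome 4, the chromosomes had a gap of 4557 bp, a q share of 5.21% and a 5 times share of 3.17%. With a median of 5 fragments at a summit, single peaks of low background have wide intervals.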
